A study of Mus musculus with 14 samples.

Results

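Solute carrier (SLC) genes were followed in spinal cord microglia of wild-type mice and of mice modelling Alzheimer's disease, with and without inflammatory arthritis. The members were the genes whose symbol is Slc and a digit and which reached 10 reads in no fewer than 7 of the 14 libraries. They numbered 199 of the 214 genes with such a symbol, out of 14329 genes in all. Of the 199, 194 encode transporters, and the other 5 (Slc9a3r1, Slc9a3r2, Slc4a1ap, Slc7a6os and Slc2a4rg-ps) are only named after one. Just inside the threshold lay 9 members with 10 reads in 7 libraries, at means of 9.45 to 46.2 normalized counts, and just outside it Slc4a3 (16.5) and Slc16a14 (27.4), with 10 reads in 6. Each library came from RNA of 2000 cells (CD45low, CD11b+, CX3CR1+, with Ly6C+ and CCR2+ cells gated out) sorted from the dorsal horn of 6-month-old C57BL/6 mice at day 5 of serum transfer by intraperitoneal injection. K/BxN serum transfer (K/BxN ST) used arthritogenic serum, and Control ST used pooled serum of KRN/C57 mice. TASTPM mice were heterozygous for human transgenes that model Alzheimer's disease, among them APP with the Swedish mutation, under the murine Thy-1 promoter, which drives expression in neurons, and WT mice were free of transgenes on the same background. There were 4 libraries of WT K/BxN ST, 3 of WT Control ST, 4 of TASTPM K/BxN ST and 3 of TASTPM Control ST. The mice were of both sexes. By the study's methods the replicates of the sequencing were individual mice, so that p values measure the spread between mice within a group.

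SLC proteins move small molecules across the plasma membrane and the membranes of organelles, along a gradient or by coupling to an ion. They decide which fuels a cell can take up (glucose, fructose, lactate, amino acids), supply lysosomes, Golgi and mitochondria, and set intracellular pH and metal content. Microglia are known for the fructose transporter Slc2a5, which is used as a marker of these cells, and for lysosomal transporters that return the products of digestion to the cytosol.

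Reads on genes numbered 14223015 to 20239175 per library, and the members took 1.07% to 1.63% of them. Microglial markers (8 of 8 genes present) held 1.79% to 6.34% of reads. Libraries 1 and 2 of WT K/BxN ST and libraries 1 and 2 of TASTPM K/BxN ST stood apart. The 8 monocyte markers, all of which were present, held 3.74% and 3.01% of reads in the WT pair and 4.05% and 2.17% in the TASTPM pair, against 0.0512% to 0.138% in the other 10 libraries. The 10 neutrophil markers held 1.29% and 0.0213% in the WT pair and 1.18% in each of the TASTPM pair, against at most 0.0159% elsewhere. Ly6c2 and Ccr2, 2 of the monocyte markers, had 12898 to 29133 and 8537 to 27035 normalized counts in these 4 libraries, against at most 17.8 and 86.0 elsewhere. The sort is described as removing cells with Ly6C or CCR2 protein. The part of cells carrying these markers in the differences given here was not tested, and in bulk samples fewer cells of a type and less RNA per cell cannot be told apart. WT Control ST library 3 stood apart in red cell markers (5 of 6 genes present), with 0.242% of reads against at most 0.0276% in the other 13 libraries. Without it limma called 0 members in any comparison, as with it, while of all genes it called 0.134% in WT (17 genes, against 1 with it), 0.0870% between genotypes in Control ST (11, against 0) and 0 in the other comparisons. For the interaction, 15 members then had an unadjusted limma p below 0.05 in place of 9, and 589 of all genes in place of 385. The WT log2 fold changes of Slc2a1, Slc2a3 and Slc26a6 without it were -0.54, 4.39 and 4.58. The members' share of reads was 1.18% and 1.38% in the WT pair and 1.07% and 1.32% in the TASTPM pair, while the other K/BxN ST libraries had 1.51% to 1.63%. Control ST libraries had 1.52% to 1.58% in WT and 1.28% to 1.57% in TASTPM. A low share was thus not particular to the 2 pairs, since TASTPM Control ST library 2 (1.28%) lay below library 2 of each pair. Within the members' reads, mitochondrial carriers made up 15.7% to 23.7% in the 4 libraries rich in monocyte markers and 10.8% to 13.7% in the other 10, and sugar transporters 8.11% to 10.3% against 10.2% to 13.5%. TASTPM K/BxN ST library 1 held the lowest value of all 14 libraries for 37 members, more than any other library (3 to 20), after 29 members with a tied lowest value were set aside.

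**Figure D1:**
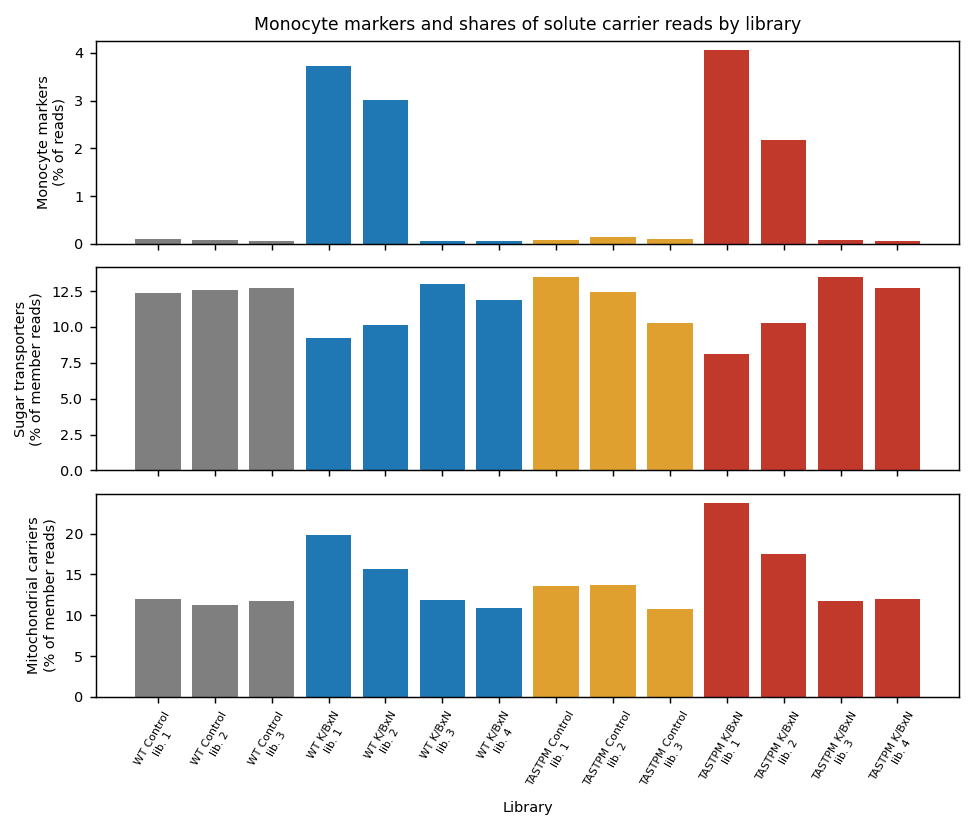
Bars give, for each of the 14 libraries, the share of reads on the 8 monocyte markers (top, % of reads), on sugar transporters (middle, % of member reads) and on mitochondrial carriers (bottom, % of member reads), coloured by group. The 4 libraries with 2.17% to 4.05% monocyte marker reads also hold the 4 highest mitochondrial carrier shares, 15.7% to 23.7%.

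Levels between genes were compared per kb of exon, as the mean normalized count (the reads of a gene divided by 1 factor per library) over the 14 libraries. Slc25a5, the ADP/ATP carrier of the inner mitochondrial membrane, was the highest at 6187 ± 1541 normalized counts per kb (SD, n = 14), followed by Slc2a5 at 4042 ± 1348. The difference between them, 2145 ± 2728 per kb, was smaller than its SD, although Slc25a5 was the higher in 13 of 14 libraries. Without the 4 libraries rich in monocyte markers, left out after the data were seen, they stood at 5366 ± 631 and 4775 ± 604 per kb (n = 10), and their difference, 592 ± 592, was about as large as its SD. Slc11a1 (NRAMP1), which exports iron and manganese from phagosomes, stood at 2474 ± 438 per kb, and Slc3a2 (CD98hc), the heavy chain that brings amino acid exchangers to the plasma membrane, at 2318 ± 561. Slc2a5 exceeded Slc11a1 in 13 of 14 libraries, whereas Slc11a1 and Slc3a2 differed by 156 ± 400 per kb and did not separate. Slc29a3, a nucleoside transporter of lysosomes, had 1691 ± 411 per kb and lay below Slc3a2 and above the sixth gene, Slc35b2, in 14 of 14 libraries.

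From Slc35b2 (1243 ± 301 per kb), which carries the sulfate donor PAPS into the Golgi, down to Slc7a7 (581 ± 173), an exchanger of cationic for neutral amino acids, each neighbouring pair differed by less than the SD of its difference. In that order came the proton-coupled folate transporter Slc46a1, the copper transporter Slc31a2, the lysosomal Slc46a3, the oxoglutarate carrier Slc25a11, the neutral amino acid exchanger Slc7a8, the scaffold gene Slc9a3r1, the sugar transporter Slc50a1 and Slc10a3. Exons of Slc46a1 overlap those of Sarm1 over 54.8% of their bases, and those of Slc46a3 overlap Pomp over 44.5%. In all, 23 members had over 20% of their exon bases shared with another gene, and libraries made without marking strand cannot assign such reads, so their values are uncertain. By substrate, the class of nucleosides, nucleotides and nucleotide sugars (17 members) had the highest median level among classes, 191 normalized counts per kb, and neurotransmitter, taurine and creatine transporters (5 members) the lowest, 6.29 per kb. Over the 14 libraries the median coefficient of variation was 36.8% for the members and 40.4% for all genes tested.

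**Figure D2:**
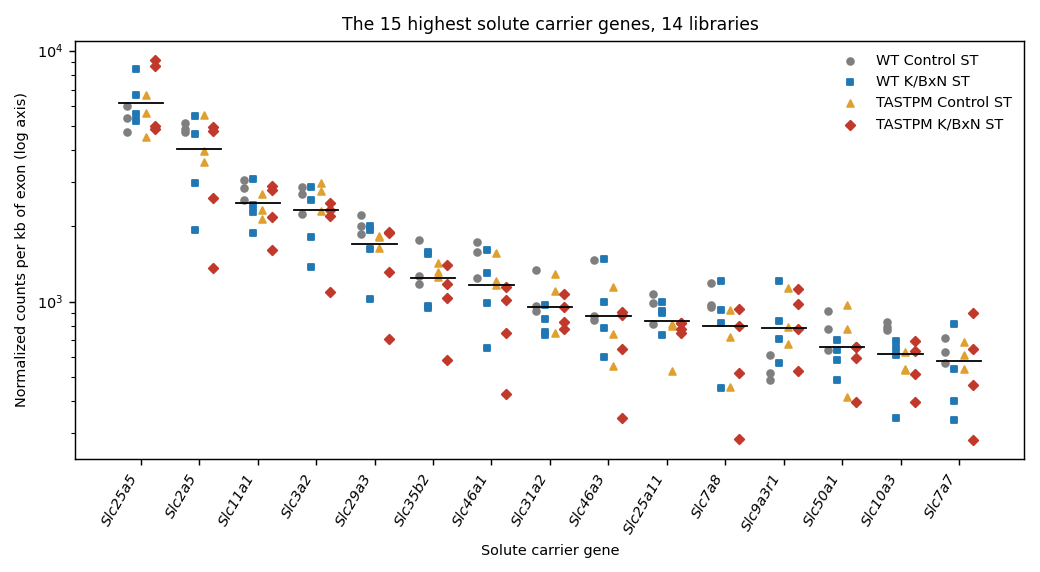
Each point is a library's normalized count per kb of exon (log axis) for the 15 solute carrier genes with the highest mean, by group, and the line is the mean over 14 libraries. Slc25a5 (mean 6187 per kb) and Slc2a5 (4042 per kb) lie highest, and for Slc2a5 the lowest points are K/BxN ST libraries.

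The first question was which members differed between K/BxN ST and Control ST in each genotype. Values were compared as log2 (normalized count + 1) in limma over 12645 genes, and a call needed an adjusted p under 0.05 and a log2 fold change beyond 1 in either direction. On this scale the fold change of a gene with libraries at or near 0 reads depends on the pseudocount of 1. No member was called in WT, where 0.00791% of all genes were called, or in TASTPM, where 0% were. At an unadjusted p below 0.05, limma had 10 members higher in WT K/BxN ST (5.03% of 199, against 4.77% of all genes tested) and 10 lower (5.03%, against 2.36%). In TASTPM it had 5 higher (2.51%, against 2.62%) and 3 lower (1.51%, against 1.60%). DESeq2 on the recovered reads called 2 members in WT, Slc2a3 and Slc66a2 (1.01%, against 1.00% of all genes), and 0 in TASTPM (against 0.127%), and edgeR called 0 in each genotype. The median log2 fold change was -0.03 over the members and 0.06 over all genes tested in WT, and -0.02 and 0.01 in TASTPM. Without the 4 libraries rich in monocyte markers, left out after the data were seen, these medians were 0.07 and 0.04 in WT and 0.11 and -0.01 in TASTPM. The sign of the members' median thus depended on those libraries.

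The values of K/BxN ST and Control ST libraries did not overlap for 8 members that were higher in WT K/BxN ST (4.02%, against 3.67% of all genes tested) and 13 that were lower (6.53%, against 3.71%). In TASTPM they did not overlap for 7 higher members (3.52%, against 2.67%) and 6 lower ones (3.02%, against 2.74%). Slc16a10 was the single member whose groups separated the same way in both genotypes (0.503% of members, against 0.467% of all genes), and Slc2a1 the single member that separated in opposite ways (0.503%, against 0.0712%, or 9 of 12645 genes). Most of these shares lay close to those of all genes, and the excess among lower members in WT is given as a count alone. The 2 K/BxN comparisons use different Control ST libraries.

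**Figure D3:**
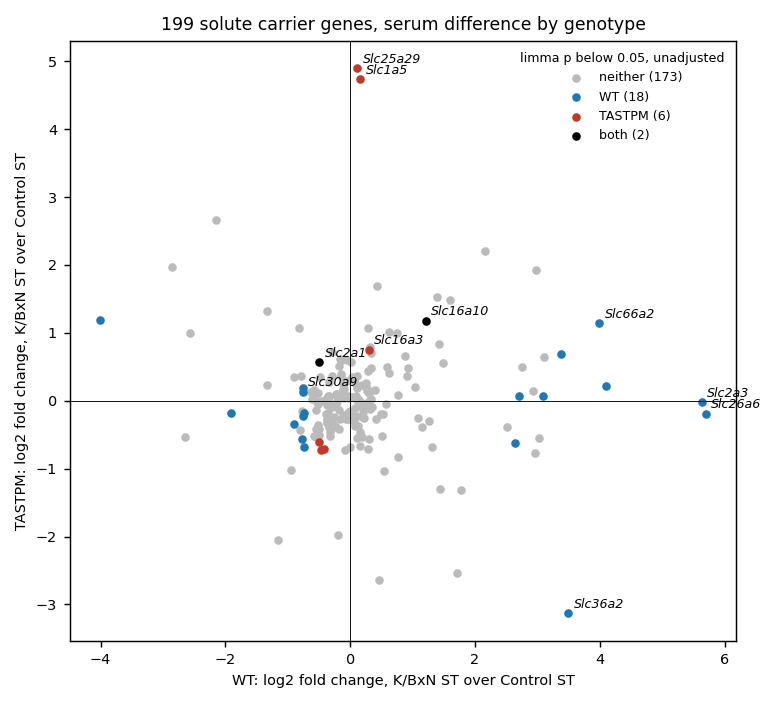
Each point is a member, with its log2 fold change of K/BxN ST over Control ST in WT (horizontal) and in TASTPM (vertical), coloured by the genotype in which the unadjusted limma p was below 0.05. Of 199 members 18 are coloured for WT, 6 for TASTPM and 2, Slc2a1 and Slc16a10, for both.

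Among the 16 sugar transporters, Slc2a1 (GLUT1), the glucose transporter that cells raise when they rely on glycolysis, had the smallest interaction p of all members. The gene (ENSMUSG00000028645) lies on the + strand of chromosome 4 at 118965908 to 118996365 (GRCm39), and the counts are of reads over its exons. It had 2994, 1965 and 2211 normalized counts in the 3 WT Control ST libraries, while WT K/BxN ST had 1630, 1958, 1343 and 1789. In TASTPM it had 1707, 1169 and 1697 in Control ST and 2265, 1988, 2605 and 2102 in K/BxN ST. All WT K/BxN ST libraries were thus below all WT Control ST libraries, by a narrow margin at the nearest values, and all TASTPM K/BxN ST libraries were above all TASTPM Control ST libraries. The log2 fold change with serum was -0.50 ± 0.21 (SE) in WT (limma adjusted p = 0.684, and p = 0.0571 by a two-sided exact permutation test). In TASTPM it was 0.57 ± 0.21 (limma adjusted p = 0.964, and p = 0.0286 by the same exact test, unadjusted, the smallest that 4 against 3 libraries allow and one that 10 of 130 such tests reached). The interaction was 1.07 ± 0.30 on the log2 scale with an unadjusted limma p of 0.0031, and its limma adjusted p of 0.999 did not pass. Without the 4 libraries rich in monocyte markers the 2 differences were -0.60 and 0.64 and the interaction 1.24, so the values were as large without those libraries. Without WT Control ST library 1, which held the highest value, the difference in WT was -0.32 and the interaction 0.89, and without TASTPM Control ST library 2, which held the lowest, the difference in TASTPM was 0.39. In Control ST, Slc2a1 was lower in TASTPM than in WT by -0.65 ± 0.23 on the log2 scale (limma adjusted p = 0.750), and the 2 groups of 3 did not overlap.

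Slc2a3 (GLUT3), a glucose transporter of high affinity, had the smallest p of all members in WT. The gene (ENSMUSG00000003153) lies on the - strand of chromosome 6 at 122704768 to 122778599. Its WT Control ST libraries had 0.937, 88.0 and 0 normalized counts, where 0.937 is 1 read, while WT K/BxN ST had 761, 99.2, 375 and 201. TASTPM libraries were at this upper level with either serum, with 395, 366 and 487 in Control ST and 469, 520, 241 and 472 in K/BxN ST. All libraries of the other groups lay above the 3 WT Control ST libraries, the nearest being 99.2 against 88.0. In WT the log2 fold change was 5.63 ± 1.15 in limma (adjusted p = 0.259) and 3.60 in DESeq2 (adjusted p = 0.0360, called), and in TASTPM it was -0.02 ± 1.15 in limma (adjusted p = 0.999). TASTPM exceeded WT in Control ST by 6.22 ± 1.23 (limma adjusted p = 0.357, DESeq2 adjusted p = 0.0892). The interaction, -5.65 ± 1.62, had a limma adjusted p of 0.999. Without WT Control ST library 2, limma called Slc2a3 in WT (adjusted p = 0.000552), between genotypes in Control ST (adjusted p = 0.000426) and in the interaction (adjusted p = 0.0163). The remaining WT Control ST libraries then hold 1 read and 0, so that the fitted fold rests on the pseudocount. Of all genes tested limma then called 0.111% in WT, 0.0712% between genotypes in Control ST and 0.0237% for the interaction. Slc2a3 and Slc66a2 are among genes that the study listed from these same samples, so their place here is not independent evidence.

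Slc2a5 (GLUT5), the fructose transporter, had 20992, 20410 and 22179 normalized counts in WT Control ST and 23787, 17122 and 15517 in TASTPM Control ST. WT K/BxN ST had 8275, 12811, 23652 and 20103, and TASTPM K/BxN ST 5838, 11157, 21413 and 20567. The 4 lowest values were those of the 4 libraries rich in monocyte markers, and the other K/BxN ST libraries lay within or near the range of Control ST. The log2 fold change, -0.50 ± 0.42 in WT and -0.51 ± 0.42 in TASTPM (limma adjusted p = 0.791 and 0.964), became 0.04 and 0.18 without those libraries. Slc37a2, the glucose-6-phosphate transporter of macrophages, had its 4 lowest values in the same 4 libraries, with 1027 and 2615 in TASTPM K/BxN ST libraries 1 and 2 and 3598 and 3651 in libraries 3 and 4. Slc2a6, a lysosomal hexose transporter, ran the other way, with 1762 and 1012 in WT K/BxN ST libraries 1 and 2 and 302 and 423 in libraries 3 and 4.

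The start regions of Slc2a1 and Slc2a5 are shown because the results on sugar transporters turn on these genes, Slc2a1 for its order by genotype and serum and Slc2a5 for its high level. Each covers 250 bases before to 50 after the start of transcription, from RefSeq on GRCm38.p6, both on the + strand of chromosome 4. RefSeq promoters matched 152 of the 199 members, and Slc2a3 had no entry. Capitals mark matches, on either strand, to the GC box GGGCGG, the hypoxia element core ACGTG, the TATA box TATAAA and the PU.1 core GAGGAA.
Slc2a1, chr4:119108495-119108794: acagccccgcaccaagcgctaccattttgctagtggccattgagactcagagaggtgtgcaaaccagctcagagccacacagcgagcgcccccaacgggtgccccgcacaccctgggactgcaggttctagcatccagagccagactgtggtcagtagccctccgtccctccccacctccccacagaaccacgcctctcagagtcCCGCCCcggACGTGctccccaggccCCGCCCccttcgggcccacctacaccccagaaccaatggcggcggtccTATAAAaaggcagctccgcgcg
Slc2a5, chr4:150119094-150119393: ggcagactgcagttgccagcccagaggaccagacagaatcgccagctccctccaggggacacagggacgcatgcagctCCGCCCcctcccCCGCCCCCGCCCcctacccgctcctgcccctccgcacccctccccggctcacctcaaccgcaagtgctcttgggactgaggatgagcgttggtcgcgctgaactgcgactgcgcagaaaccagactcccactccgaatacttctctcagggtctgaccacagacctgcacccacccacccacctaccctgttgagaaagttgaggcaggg
Slc2a1 held 2 GC boxes, 1 ACGTG and 1 TATAAA, and Slc2a5 held 3 GC boxes and neither of these others. GAGGAA was in neither window. No capitals of different motifs overlap. Among 32851 promoters of this length, 35.7% held GGGCGG, 19.6% ACGTG, 13.6% TATAAA and 28.3% GAGGAA.

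**Figure D4:**
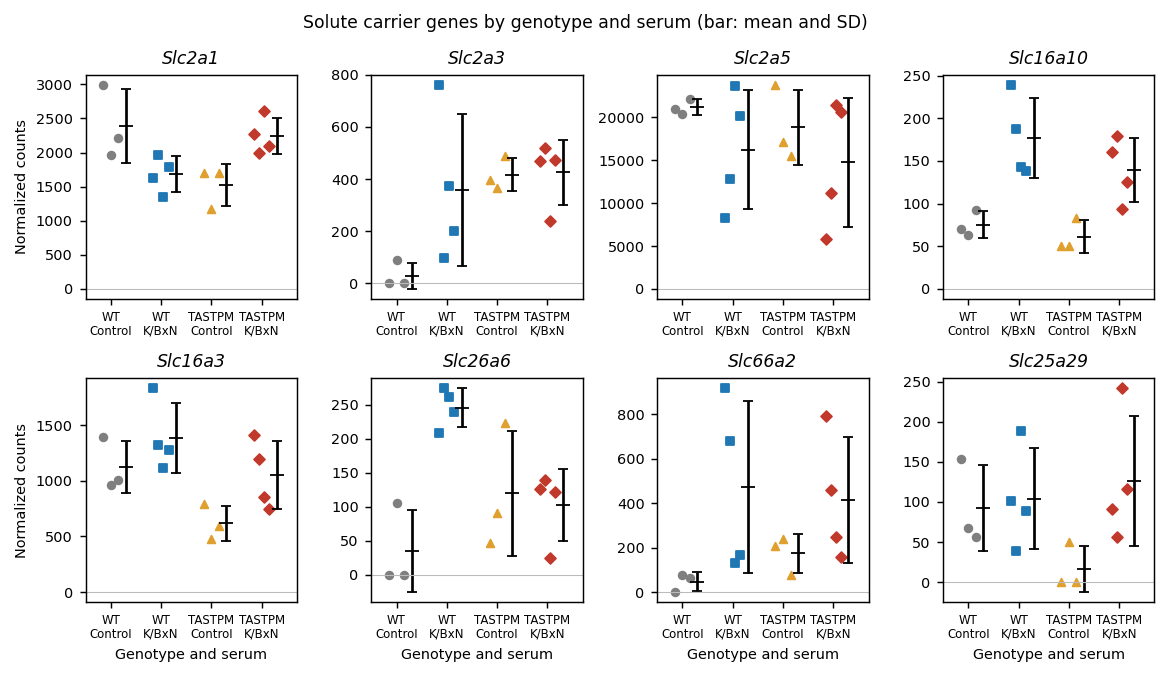
Points are the normalized counts of single libraries for 8 members in the 4 groups, with the group mean and SD beside them. Slc2a1 separates in opposite directions in WT and TASTPM, Slc2a3 is lowest in WT Control ST, and Slc16a10 is higher with K/BxN ST in both genotypes.

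Monocarboxylate carriers (6 members) included Slc16a3 (MCT4), which exports lactate. Slc16a3 had 1389, 966 and 1009 normalized counts in WT Control ST, against 1834, 1321, 1112 and 1274 in WT K/BxN ST, which overlapped. TASTPM Control ST had 788, 475 and 592 and TASTPM K/BxN ST 1409, 1195, 854 and 748. The log2 fold change was 0.30 ± 0.28 in WT and 0.75 ± 0.28 in TASTPM (limma adjusted p = 0.806 and 0.964), and in Control ST TASTPM differed from WT by -0.87 ± 0.29 (limma adjusted p = 0.748) with no overlap. In WT the difference ran from 0.02 to 0.39 over 9 alternative settings and from 0.16 to 0.46 with each library left out in turn. In TASTPM the difference was 0.40 without the libraries rich in monocyte markers, and 40.1% of the exon bases of Slc16a3 are shared with Csnk1d. Slc16a1 (MCT1), which carries lactate and pyruvate in either direction, ranged from 251 to 1278 with overlap in both genotypes. Slc16a6, a ketone body transporter, had 3729, 3146 and 4475 in WT Control ST, against 1348, 1849, 3081 and 2982 in WT K/BxN ST, which did not overlap. Its difference of -0.78 ± 0.30 in WT (limma adjusted p = 0.668) was -0.30 without the libraries rich in monocyte markers, and 35.1% of its exon bases are shared with Amz2.

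Among amino acid and peptide transporters (27 members), 2 were higher at an unadjusted p below 0.05 and 0 lower in each genotype, where 4.77% of all genes tested were higher and 2.36% lower in WT and 2.62% and 1.60% in TASTPM. Slc16a10 (TAT1), which lets aromatic amino acids leave the cell, was among them in both. The gene (ENSMUSG00000019838) lies on the - strand of chromosome 10 at 39909448 to 40018304. It had 70.3, 62.9 and 92.6 normalized counts in WT Control ST, against 239, 188, 143 and 138 in WT K/BxN ST. In TASTPM it had 50.1, 50.0 and 83.6 in Control ST and 160, 179, 94.0 and 125 in K/BxN ST. All K/BxN ST libraries exceeded all Control ST libraries of either genotype, the nearest being 94.0 and 92.6. The log2 fold change was 1.21 ± 0.47 in WT (limma adjusted p = 0.668) and 1.18 ± 0.47 in TASTPM (limma adjusted p = 0.964), with an interaction of -0.03 ± 0.66. Without the libraries rich in monocyte markers these were 0.91 and 0.86. Of this class in WT, K/BxN ST lay wholly below Control ST for Slc15a2, Slc38a2 and Slc66a1, and wholly above it for Slc16a10 and Slc43a2. Slc15a2, Slc66a1 and Slc43a2 are named after their values were seen. Slc38a2 averaged 3579 ± 472 normalized counts (SD) in WT Control ST and 2829 ± 191 in WT K/BxN ST.

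Slc1a5 (ASCT2), a sodium-coupled transporter of glutamine and other neutral amino acids, was listed at 0, 56.6 and 0 normalized counts in TASTPM Control ST and had 734, 445, 43.5 and 6.77 in TASTPM K/BxN ST. WT Control ST had 299, 69.6 and 237, and WT K/BxN ST 872, 462, 40.6 and 79.6. The 4 libraries above 400 were the 4 rich in monocyte markers. Slc1a5 is also in the study's lists from these samples, and its log2 fold change in TASTPM, 4.74 ± 1.69 (limma adjusted p = 0.964), was 2.27 without those libraries. Slc36a2, a proton-coupled transporter of small amino acids, was at 94.0, 114 and 58.2 in TASTPM Control ST and at 22.9, 22.8, 0 and 15.8 in TASTPM K/BxN ST, which did not overlap. In WT its Control ST libraries had 0, 0 and 124, so that WT overlapped, and the interaction was -6.62 ± 2.21 (limma adjusted p = 0.999).

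Slc3a2, the highest per kb of the amino acid class, ranged from 5105 to 13881 normalized counts, with its 2 lowest values in TASTPM K/BxN ST library 1 (5105) and WT K/BxN ST library 1 (6401). Slc7a8 (LAT2), a partner of Slc3a2, had 2616 and 4810 in TASTPM K/BxN ST libraries 1 and 2 and 8632 and 7410 in libraries 3 and 4. WT K/BxN ST library 1 and TASTPM Control ST library 2 also lay below 4810, while WT K/BxN ST library 2 lay above 7410. Low Slc7a8 was thus not particular to the libraries rich in monocyte markers, nor found in all of them. Slc1a3 (GLAST), a glutamate transporter best known from astrocytes, had 1396 to 3012 in the 4 libraries rich in monocyte markers and 2860 to 7328 in the others. The 6 astrocyte markers, of which Slc1a3 is itself a member, held at most 0.0458% of reads. In the library with that share, TASTPM K/BxN ST library 4, Slc1a3 had 6495 of their 6736 reads. The share is thus nearly that of Slc1a3 alone and says little of other astrocyte RNA. Slc1a2 (GLT-1), the other glial glutamate transporter, stood at 0 to 397. The lysosomal peptide and histidine carriers Slc15a4 and Slc15a3 ranged from 2105 to 5854 and from 81.1 to 720.

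Metal and heme transporters (27 members) had 1 member higher and 3 lower at an unadjusted p below 0.05 in WT (all genes 4.77% and 2.36%) and 0 in either direction in TASTPM (all genes 2.62% and 1.60%). Slc30a9, a mitochondrial zinc transporter, had 1352, 1451 and 1319 normalized counts in WT Control ST, against 733, 639, 738 and 1231 in WT K/BxN ST. TASTPM had 825, 944 and 619 in Control ST and 707, 758, 1096 and 928 in K/BxN ST. WT Control ST lay above all other libraries. The log2 difference was -0.77 ± 0.26 with serum in WT (limma adjusted p = 0.605) and -0.81 ± 0.28 between genotypes in Control ST (limma adjusted p = 0.748), 2 comparisons that share the WT Control ST libraries. Slc40a1 (ferroportin), the iron exporter, had 1809 and 3155 in TASTPM K/BxN ST libraries 1 and 2 and 6095 and 5070 in libraries 3 and 4. In WT K/BxN ST it had 2608 and 3924 against 5572 and 5272, and Control ST libraries of both genotypes had 3725 to 6832. Slc11a1 was steadier, from 6418 to 12286 over all libraries. Slc48a1, which moves heme out of lysosomes, ranged from 422 to 1721, with 82.1% of its exon bases shared with Hdac7.

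Mitochondrial carriers, the largest class (37 members), had 3 higher and 2 lower at an unadjusted p below 0.05 in WT and 1 and 0 in TASTPM, against 4.77% and 2.36% of all genes tested in WT and 2.62% and 1.60% in TASTPM. In WT K/BxN ST libraries 1 and 2 Slc25a5 had 14879 and 11736 normalized counts, and 16255 and 15366 in TASTPM K/BxN ST libraries 1 and 2, while the other 10 libraries had 8030 to 11725. Its log2 fold change was 0.25 in WT and 0.26 in TASTPM. Slc25a4, the ADP/ATP carrier of heart and muscle, stayed between 1196 and 2063. Slc25a32, which carries folate or FAD into mitochondria, had 628, 639 and 465 normalized counts in WT Control ST, against 329, 424, 265 and 350 in WT K/BxN ST. In TASTPM it had 226, 252 and 214 in Control ST and 377, 242, 214 and 241 in K/BxN ST. WT Control ST was above all other libraries. TASTPM differed from WT in Control ST by -1.31 ± 0.32 in limma (adjusted p = 0.564) and by -1.33 in DESeq2 (adjusted p = 0.0284, called).

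Slc25a29, a carrier of basic amino acids, was listed at 0, 50.0 and 0 normalized counts in TASTPM Control ST and had 91.5, 56.1, 242 and 116 in TASTPM K/BxN ST. WT overlapped, with 154, 67.1 and 56.3 in Control ST and 101, 39.0, 189 and 88.3 in K/BxN ST. The log2 difference in TASTPM was 4.90 ± 1.17 in limma (adjusted p = 0.964) and 2.93 in DESeq2 (adjusted p = 0.625). Without TASTPM Control ST library 2, which held all the reads of that group, limma called it with serum in TASTPM (adjusted p = 0.0223) and between genotypes in Control ST (adjusted p = 0.0383), and the fitted fold then rests on the pseudocount. Of all genes tested 0.00791% and 0.0158% were then called. Slc25a40, a carrier of glutathione, had 484, 175 and 243 in WT Control ST, against 153, 46.9, 135 and 27.3 in WT K/BxN ST (log2 difference -1.91 ± 0.67, limma adjusted p = 0.612).

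The class of bicarbonate, chloride, sulfate and other anions (7 members) held the other member with a difference above 5 on the log2 scale in WT. Slc26a6, an exchanger of chloride, oxalate and bicarbonate, was listed at 0, 105 and 0 normalized counts in WT Control ST and had 209, 275, 262 and 239 in WT K/BxN ST. TASTPM had 46.0, 91.0 and 223 in Control ST and 126, 140, 24.7 and 122 in K/BxN ST, which overlapped. The log2 difference in WT was 5.70 ± 1.31 in limma (adjusted p = 0.376) and 2.81 in DESeq2 (adjusted p = 0.428), and the interaction was -5.89 ± 1.85 (limma adjusted p = 0.999). Without WT Control ST library 2 limma called Slc26a6 in WT (adjusted p = 0.00129), between genotypes in Control ST (adjusted p = 0.0106) and in the interaction (adjusted p = 0.022). The remaining WT Control ST libraries are then all at 0. A gene model without a name, Gm57039, shares 33.7% of its exon bases.

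Of the remaining members, Slc66a2, a membrane protein with a repeat shared with lysosomal amino acid carriers, had 0.937, 78.0 and 65.9 normalized counts in WT Control ST, against 920, 680, 134 and 168 in WT K/BxN ST. In TASTPM it had 208, 240 and 76.3 in Control ST and 794, 459, 247 and 158 in K/BxN ST. The 4 highest values were again those of the 4 libraries rich in monocyte markers. In WT the log2 fold change was 3.99 ± 1.12 in limma (adjusted p = 0.477) and 3.31 in DESeq2 (adjusted p = 0.0263, called), and without those 4 libraries limma gave 2.80. Without WT Control ST library 1, which held 1 read, it gave 2.25 (adjusted p = 0.710). The lysosomal nucleoside carrier Slc29a3 had 5049 and 9306 in TASTPM K/BxN ST libraries 1 and 2 and 7307 in WT K/BxN ST library 1, against 11552 to 15677 in the other 11. Slc46a1 separated in TASTPM, with 5102, 3778 and 3917 in Control ST and 1399, 2448, 3312 and 3730 in K/BxN ST (log2 difference -0.73 ± 0.34, limma adjusted p = 0.964), and the difference was -0.27 without the libraries rich in monocyte markers, which hold the 2 lowest values. Slc4a7, a sodium bicarbonate cotransporter of the anion class, separated as well, with 1336, 1331 and 2169 against 879, 1091, 1094 and 1091 (-0.60 ± 0.26, limma adjusted p = 0.964, and -0.52 without those libraries). The taurine transporter Slc6a6 had 2479, 2134 and 2433 in WT Control ST, against 2743, 2917, 2999 and 2626 in WT K/BxN ST, which did not overlap, while TASTPM did.

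In WT the class medians of log2 fold change ran from -0.30 for neurotransmitter, taurine and creatine transporters (5 members) to 0.26 for choline, fatty acid and other lipid transporters (5 members), apart from phosphate, whose 2 members had a median of 0.90. Mitochondrial carriers had a median of 0.19 in WT and 0.08 in TASTPM, with 21 and 22 of 37 above 0. Metal and heme transporters had -0.22 and -0.04, with 9 and 13 of 27 above 0. Amino acid and peptide transporters had -0.20 and -0.15, with 12 and 11 of 27 above 0. In TASTPM the class medians ran from -0.43 for the 5 genes only named after a transporter to 0.14 for organic cation and organic anion transporters (7 members), apart from phosphate with 0.21.

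**Figure D5:**
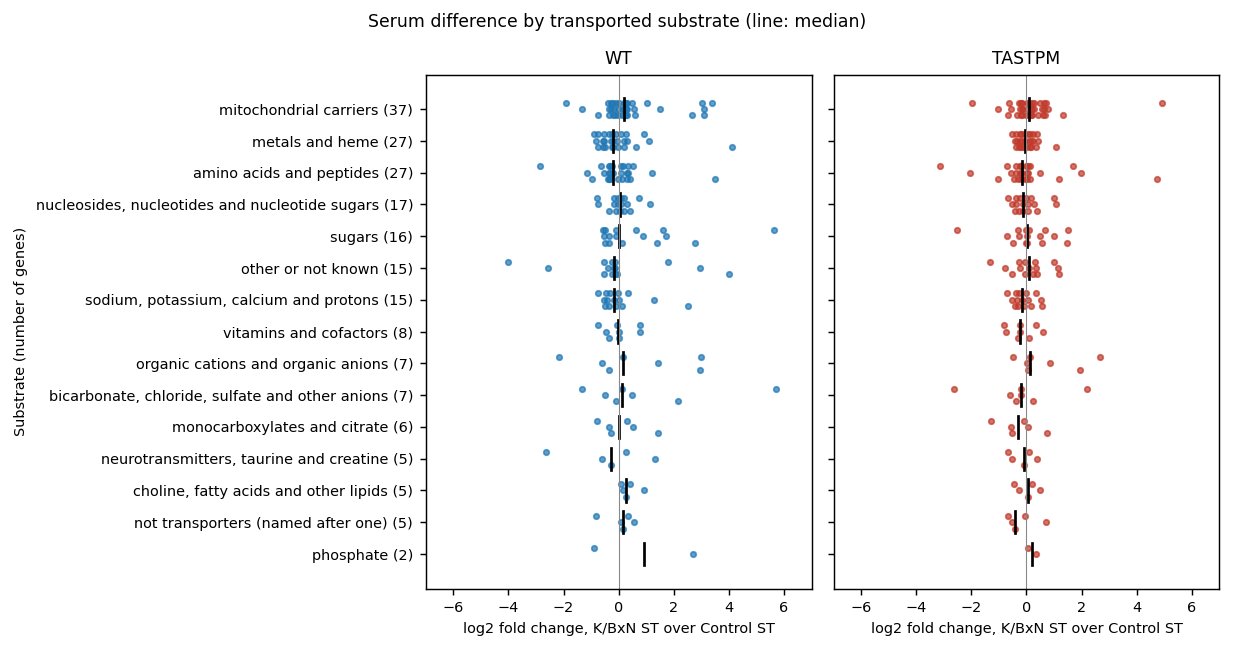
Points are the log2 fold changes of K/BxN ST over Control ST of the 199 members by transported substrate, in WT (left) and TASTPM (right), with the class median as a line and the number of members in brackets. The median of mitochondrial carriers is 0.19 in WT and 0.08 in TASTPM, and the members farthest from 0 in WT are Slc26a6 (5.70) and Slc2a3 (5.63).

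The second question was whether the serum difference depended on genotype, and which members differed between genotypes. For the interaction limma called 0 members (against 0% of all genes), with 5 higher (2.51%, against 1.42%) and 4 lower (2.01%, against 1.63%) at an unadjusted p below 0.05, and DESeq2 and edgeR called 0, with 0.0949% of all genes called by DESeq2. The 5 with the smallest p were Slc2a1, Slc2a3, Slc26a6, Slc36a2 and Slc25a29, all described above. In Control ST, limma called 0 members between TASTPM and WT (against 0%), with 10 higher in TASTPM (5.03%, against 3.41% of all genes tested) and 14 lower (7.04%, against 2.16%). DESeq2 called 1, Slc25a32 (0.503%, against 0.324%). In K/BxN ST limma called 0 members (against 0%), with 2 higher (1.01%, against 1.00%) and 3 lower (1.51%, against 0.902%) at an unadjusted p below 0.05, and DESeq2 called 0 (against 0%). The count of members that differed between genotypes at an unadjusted p was thus 24 in Control ST and 5 in K/BxN ST, and the difference between these counts was not tested. The 5 in K/BxN ST were Slc41a3, a magnesium transporter (log2 difference -0.70 ± 0.26), Slc2a4rg-ps (2.26 ± 0.96), Slc25a14, an uncoupling protein homologue (1.77 ± 0.78), the carnitine transporter Slc22a5 (-1.03 ± 0.48) and the choline transporter Slc44a1 (-0.58 ± 0.27), each with a limma adjusted p of 1.00. Over 9 alternative settings Slc2a4rg-ps ran from 1.14 to 3.77 and Slc22a5 from -1.86 to -0.80. With each library left out in turn they ran from 1.44 to 2.76 and from -1.51 to -0.81.

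Of a list of 24 further transport genes with other symbols (chaperones, carriers and channels), 21 were tested, and at an unadjusted p below 0.05 limma had 1 higher and 0 lower in WT, and 0 in either direction in TASTPM, against 4.77% and 2.36% of all genes tested in WT and 2.62% and 1.60% in TASTPM. The one in WT was Ucp2, a mitochondrial carrier outside the Slc symbols, with a log2 fold change of 0.90 over a range of 7059 to 33049 normalized counts. Bsg, the chaperone of MCT1 and MCT4, ranged from 8563 to 14394, with a log2 difference of -0.25 in WT. Emb, the other chaperone of monocarboxylate carriers, had 4982 to 14124 in the 4 libraries rich in monocyte markers and 8.38 to 21.1 in the other 10, with a log2 fold change of 4.99 in WT (limma unadjusted p = 0.0699) and 4.27 in TASTPM (0.116). Between genotypes in Control ST the list had 0 higher and 1 lower, against 3.41% and 2.16% of all genes tested. The 1 lower was Mfsd8, a lysosomal membrane protein, with a log2 difference of -1.17 (limma unadjusted p = 0.00563). The median log2 fold change of the 21 was -0.18 in WT and -0.02 in TASTPM.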

How the data were processed

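Libraries of sorted dorsal horn microglia were amplified with SMART-Seq v4 and prepared without marking strand. Per the labels and methods, the authors aligned reads with HISAT2 2.1 to GRCm39 (mm39), counted them per gene with featureCounts 1.5.2 and applied DESeq2. The deposited values are a signal, in which the authors had divided the count of each gene by a factor for its library, and are not raw counts. Every value was a whole multiple of 1 read (100%, tolerance 0.01 reads), so reads were recovered. Libraries of TASTPM K/BxN ST carry the numbers of the labels, and the others were assigned by the group heading of their column and numbered in its order. Because these numbers are not shared between groups, no pairing was made. Of 14336 entries 7 repeated an identifier and were dropped.

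The 12645 genes that reached 10 reads in 7 or more of 14 libraries were tested with limma 3.58.1 (R 4.3.3) on log2 (value + 1), with a trend in the prior variance, 1 fit to 4 groups and Benjamini-Hochberg adjustment over all. edgeR 4.0.16 and DESeq2 1.42.0 were run on the recovered reads as alternatives. Two-sided exact permutation tests of the mean log2 value were made for 65 members in 2 comparisons (130 tests, unadjusted), and their smallest p of 0.0286 cannot pass an adjustment over 130. Depth, 14223015 to 20239175 reads, limits the genes of low count, and the floor of a library was set at 3 reads. Counting precision covers counting error only, since reads carry no molecular tags.

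Substrates were assigned by family from general knowledge, and exon lengths and overlaps come from GENCODE M39 on GRCm39, later than the annotation of the counts. Named members were the 15 highest per kb, the 5 with the smallest p in each comparison, those called by limma or DESeq2, a list by role and, added after its values were seen, any member named as such. Of 55 genes listed by role, 49 are members, 4 fell below the filter, and Slc4a1 and Slc17a7 were not analysed here. The members and lists were chosen with earlier results of these data known.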

Additional observations from a re-analysis of the deposited data

Results flagged for a closer look

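Slc2a1 was singled out because its serum difference ran in opposite directions in the 2 genotypes, with every K/BxN ST library below Control ST in WT and above it in TASTPM. The interaction was 1.07 on the log2 scale, and its limma adjusted p of 0.999 did not pass.

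Among 32 members examined in the 2 groups of 4 libraries (64 sets of 4), 4 sets had a library far from the others, where chance gives about 1 in 20. The carnitine transporter Slc22a5 reached 542 normalized counts in library 2 of TASTPM K/BxN ST, against 127 to 173 in the other 3. Slc25a32 had 377 in library 1 of that group, against 214 to 242. Slc26a6 had 24.7 in its library 3, against 122 to 140. Slc30a9 had 1231 in WT K/BxN ST library 4, against 639 to 738.

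Of the 15 SLC genes below the filter on reads, 4 exceeded the highest Control ST library in at least 2 K/BxN ST libraries of each genotype, with at least 10 reads (26.7%, against 338 of all 1684 genes below the filter, or 20.1%). Slc28a2, a sodium-coupled nucleoside transporter, reached 677 and 521 normalized counts in libraries 1 and 2 of TASTPM K/BxN ST and 568 and 265 in those of WT, and at most 54.5 elsewhere. Slc25a24, a calcium-regulated ATP-Mg/phosphate carrier, had 626, 270, 744 and 289 in the same libraries and at most 1.17 elsewhere. Slc52a3, a riboflavin transporter, had 206, 43.8, 56.0 and 54.9, and was listed at 0 in the other 10. Slc7a11, the cystine/glutamate exchanger xCT, had 37.4, 153, 16.3 and 63.8, and at most 9.09 elsewhere. These 4 libraries are those in which monocyte markers held 2.17% to 4.05% of reads, and the part of that RNA in these values was not tested. Slc28a2 and Slc25a24 are among genes that the study listed from these samples.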

How the results depend on the processing

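Of 230 recounts of members (10 counts, 23 alternatives each), 209 stayed within 1.5 times the reported count. The count of members called was reported as 0 in every comparison. A ratio has no meaning there, and a recount of 0 was scored as unchanged, so the 209 say little of stability. Members called went from 0 to 2 in WT and from 0 to 1 between genotypes in Control ST with DESeq2, with the filter (127 and 41 of 12645 genes called) and without it (275 and 84 of 14329). When each library was left out in turn they ranged from 0 to 3 in WT, 0 to 1 in TASTPM, 0 to 2 for the interaction and 0 to 3 between genotypes in Control ST. Over all genes limma called 0 to 17, 0 to 1, 0 to 3 and 0 to 11 in these comparisons, the 17 and 11 being without WT Control ST library 3, where 0 members were called. It called 14 in WT, 3 for the interaction and 9 between genotypes in Control ST without WT Control ST library 2, and 1 in TASTPM and 2 between genotypes in Control ST without TASTPM Control ST library 2. The 3 members without WT Control ST library 2 were Slc2a3, Slc26a6 and Slc25a53, the last named after its values were seen. At an unadjusted p below 0.05 the counts so ranged from 14 to 25 in WT, 4 to 14 in TASTPM, 8 to 15 for the interaction, 16 to 27 between genotypes in Control ST and 3 to 9 in K/BxN ST, while those of all genes ranged from 615 to 1130, 344 to 829, 345 to 589, 632 to 953 and 195 to 367. A sex-linked covariate gave 2 in TASTPM (8 reported; all genes 314, from 533) and 2 between genotypes in K/BxN ST (5 reported; all genes 243, from 241). In the latter a blood marker covariate gave 14 (all genes 435) and leaving out the 4 libraries rich in monocyte markers 11 (all genes 499), and edgeR gave 14 between genotypes in Control ST (24 reported; all genes 582, from 704). The members' median log2 fold change, reported as -0.03 in WT and -0.02 in TASTPM, turned to 0.05 and 0.09 with the blood marker covariate. Without the 4 libraries it was 0.07 and 0.11. The sign of Slc2a5 turned in WT (0.11 with the blood marker covariate, 0.04 without the 4 libraries) and in TASTPM (0.21 and 0.18). That of Slc2a3 in TASTPM, reported as -0.02, was 0.03 with DESeq2 (filtered or not) and 0.04 with edgeR, and, with each library left out in turn, -0.13 to 0.24, above 0 without TASTPM K/BxN ST library 3 (0.24) or TASTPM Control ST library 3 (0.10). The causes were not tested. No paired analysis was possible because the groups share no replicate numbers. Ranked by median, 14 of the 15 highest members per kb were kept. Without the 4 libraries rich in monocyte markers, a choice made after seeing the data, the 4 highest levels per kb moved by less than 1 SD over all 14 libraries. That SD includes the spread of the libraries left out. Slc25a5 went from 6187 to 5366 per kb and Slc2a5 from 4042 to 4775, each by more than its SD in the remaining 10 libraries (631 and 604).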
